A study of Mus musculus with 18 samples.

Results

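The 8 neutrophil genes described here were measured in 5 populations of cells sorted from mouse tumors and muscle. They were S100a8, S100a9, Retnlg, Stfa2l1, Cxcr2, Csf3r, Il1b and Il1r2. They were picked by symbol from the 22180 genes on the array with their lower level in marked than in unmarked cells already known, so that difference is described without a test. Each of the 8 genes had 1 probe set, and all 8 passed the filter on dim genes that kept 16011 genes.

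Neutrophils are short-lived white blood cells of the innate defence. They leave the bone marrow under granulocyte colony-stimulating factor, which acts through the receptor Csf3r, and follow chemokines into tissue through the receptor Cxcr2. S100a8 and S100a9 are calcium-binding proteins that pair into calprotectin, the bulk protein of the neutrophil cytosol and an inflammatory signal once released. Il1b encodes the cytokine interleukin-1β, and Il1r2 a decoy receptor that binds it without signalling. Retnlg, a resistin-like secreted protein, and Stfa2l1, a cysteine protease inhibitor of the stefin A family, are transcripts of mouse neutrophils. Monocytes and macrophages can also make Il1b, S100a8 and S100a9.

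Every mouse had the transgene aP2-Cre, in which the Fabp4 promoter drives Cre recombinase, and a tdTomato reporter that Cre switches on. Fabp4 encodes a fatty acid carrier of adipocytes, endothelial cells and macrophages. Tom+ cells thus had past or present Cre activity. The tumor mice, labelled BJ;SJL;B6.129, had SmoM2 as well, a form of the hedgehog pathway protein Smoothened that stays active. Their tumors gave Tom+/Pecam1+, Tom+/Pecam1- and Tom-/Pecam1- cells (n = 4 arrays each), at postnatal day 48 in repeats 1 to 3 and day 38 in repeat 4. Normal sternocleidomastoid, a neck muscle, of B6;SJL mice without SmoM2 gave Tom+ and Tom- cells at day 21 (n = 3 arrays each). Pecam1 (CD31) joins endothelial cells to each other and is also found on leukocytes. Tissue, SmoM2, strain and age differed together between tumor and muscle and cannot be told apart. The values were deposited log2 intensities, in which a step of 1 is a doubling. Probe sets differ in brightness, so levels were not compared between genes.

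All 8 genes were found in the RefSeq table of mouse promoters (build GRCm38.p6). The 250 bases before the start of S100a8, S100a9 and Il1r2 are printed because these 3 genes carry the main contrasts below. Capitals mark matches to 3 motifs searched on both strands. These were GAGGAA for the core of PU.1, TTGCNNAA for C/EBP and TTCNNNGAA for STAT factors. All 3 factor families act in myeloid cells.
S100a8, chr3:90668821-90669070, plus strand: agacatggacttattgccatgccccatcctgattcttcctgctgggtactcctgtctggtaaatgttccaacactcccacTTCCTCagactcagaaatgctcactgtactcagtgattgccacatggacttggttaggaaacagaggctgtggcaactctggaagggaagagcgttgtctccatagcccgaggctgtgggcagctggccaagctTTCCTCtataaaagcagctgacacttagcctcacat
S100a9, chr3:90695722-90695971, minus strand: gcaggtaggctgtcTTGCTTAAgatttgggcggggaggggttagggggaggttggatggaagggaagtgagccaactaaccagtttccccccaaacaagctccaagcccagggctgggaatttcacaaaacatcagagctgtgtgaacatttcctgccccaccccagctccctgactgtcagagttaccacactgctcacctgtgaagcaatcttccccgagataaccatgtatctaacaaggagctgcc
Il1r2, chr1:40085843-40086092, plus strand: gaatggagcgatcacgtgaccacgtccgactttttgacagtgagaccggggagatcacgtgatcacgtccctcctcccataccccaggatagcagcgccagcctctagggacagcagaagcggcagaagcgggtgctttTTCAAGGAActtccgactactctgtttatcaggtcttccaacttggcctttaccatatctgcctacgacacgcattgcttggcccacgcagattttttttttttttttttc
S100a8 held GAGGAA at 170 and 36 bases before its start, both on the strand opposite to the one printed. S100a9 held TTGCNNAA at 236 bases, and Il1r2 held TTCNNNGAA at 111 bases. The start used for Il1r2 lies inside the annotated gene (chr1:40084692-40125230). S100a8 (chr3:90669071-90670034) and S100a9 (chr3:90692630-90695721) lie side by side on chromosome 3. Among the 8 genes, 4 held GAGGAA, against 23.3% of all 32851 promoters of the same length. TTGCNNAA was found in 2 of the 8 genes and in 9.6% of all promoters, and TTCNNNGAA in 1 gene and in 7.0%. The full palindrome TTGCGCAA, a special case of TTGCNNAA, was found in 0 of the 8 genes and in 0.2% of all promoters. A match is a stretch of letters and does not show that a factor binds there.

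Pecam1 checked the gate, with 11.88 ± 0.21 in tumor Tom+/Pecam1+ cells against 7.10 ± 0.23 in Tom+/Pecam1- and 7.37 ± 0.38 in Tom-/Pecam1- cells. In muscle it stood at 11.18 ± 0.07 in Tom+ cells and 8.10 ± 0.28 in Tom- cells (SD). Array medians lay between 5.41 and 5.438 in tumor and between 5.041 and 5.105 in muscle, so tumor was compared with muscle after the median of each array was subtracted. In the tumor table, the mean over the 3 populations was equal for every repeat number at every probe set (largest range 7.67e-05). Differences within a repeat are unaffected by this, but a repeat that is high in one population is made lower in the others, and p-values for tumor tend to be too small. Tumor repeats 1 and 2 also stood apart from repeats 3 and 4 in neutrophil granule genes, as described below. The number of arrays limits the precision, and p-values measure only the spread between these arrays.

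The tumor comparison of Tom+/Pecam1- with Tom-/Pecam1- cells asks what sets the marked cells apart. All 8 neutrophil genes were lower in the marked cells, by 2.18 to 5.86 on the log2 scale (median -4.34, against 0.03 over all genes tested). The arrays of the populations did not overlap in any of the 8 genes, a pattern that 13.1% of all genes showed in this direction. The choice of the genes used this contrast, so the count carries no evidence of its own. Ranked from the lowest difference among 16011 genes, S100a8 came at place 1 and Csf3r at place 101, and 6 of the 8 genes were among the lowest 12. In these bulk samples, fewer neutrophils and less RNA per neutrophil cannot be told apart.

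**Figure D1:**
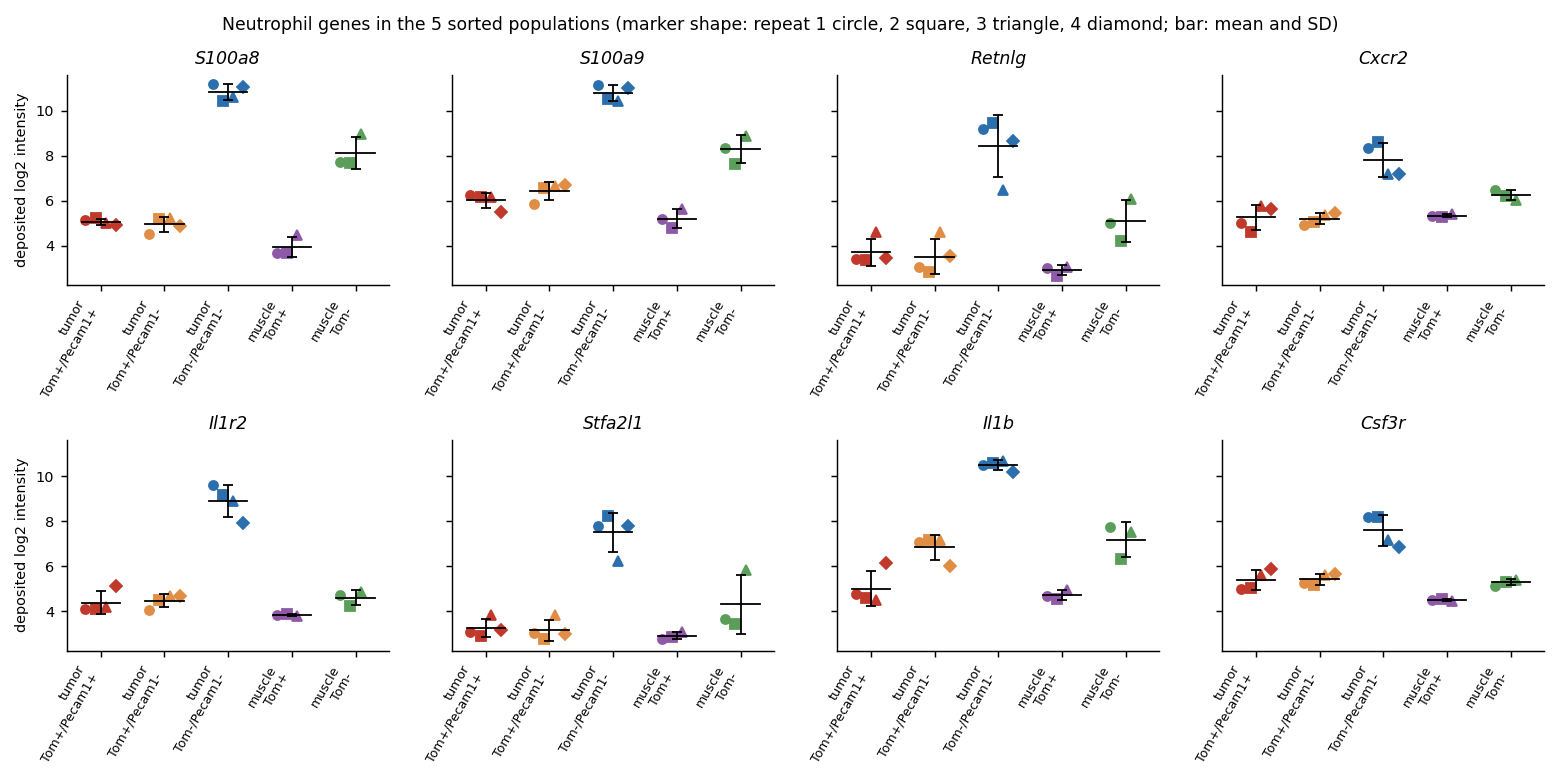
Deposited log2 intensity (vertical axis) of the 8 neutrophil genes on all 18 arrays, by sorted population (horizontal axis). Points are arrays, with the repeat given by the marker shape, and bars show the mean and SD. All 8 genes have their highest mean in tumor Tom-/Pecam1- cells, where S100a8 lies between 10.43 and 11.18.

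Of the calprotectin genes, S100a8 showed the widest gap of all 8 genes in tumor. S100a8 stood at 5.13, 5.23, 5.02 and 4.93 in tumor Tom+/Pecam1+ cells and at 4.54, 5.19, 5.24 and 4.86 in Tom+/Pecam1- cells, against 11.18, 10.43, 10.59 and 11.07 in Tom-/Pecam1- cells. In muscle S100a8 stood at 3.69, 3.69 and 4.47 in Tom+ cells, against 7.72, 7.68 and 8.94 in Tom- cells. The 2 unmarked populations were high on every array, and the lowest unmarked muscle array lay above every marked array of either tissue. The difference was -5.86 in tumor, 58.1-fold lower in Tom+/Pecam1- cells, and -4.16 in muscle, 17.9-fold lower in Tom+ cells. S100a8 was under the 40th percentile of the array, the mark used for dim genes, on all 3 Tom+ muscle arrays, so the fold there may be understated.

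S100a9, the partner of S100a8, followed the same order of tissues. It stood at 6.24, 6.15, 6.16 and 5.51 in tumor Tom+/Pecam1+ cells and at 5.86, 6.57, 6.64 and 6.72 in Tom+/Pecam1- cells, against 11.14, 10.51, 10.43 and 11.01 in Tom-/Pecam1- cells. In muscle it stood at 5.18, 4.80 and 5.64 in Tom+ cells, against 8.36, 7.63 and 8.87 in Tom- cells. Marked and unmarked arrays did not overlap in either tissue. The difference was -4.33 in tumor (20.1-fold lower in marked cells) and -3.08 in muscle (8.46-fold lower).

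Retnlg varied most between the tumor repeats. It stood at 3.39, 3.37, 4.60 and 3.47 in tumor Tom+/Pecam1+ cells and at 3.08, 2.82, 4.59 and 3.53 in Tom+/Pecam1- cells, against 9.18, 9.46, 6.46 and 8.64 in Tom-/Pecam1- cells. In the unmarked cells repeat 3 was the low array. In both marked populations repeat 3 was the high one, but equal repeat means raise marked arrays where the unmarked one is low. In muscle Retnlg stood at 3.02, 2.68 and 3.05 in Tom+ cells, against 5.0, 4.23 and 6.09 in Tom- cells. The differences were -4.93 in tumor (30.5-fold lower in marked cells) and -2.19 in muscle.

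Stfa2l1 had a similar pattern at its own level. It stood at 3.08, 2.90, 3.84 and 3.14 in tumor Tom+/Pecam1+ cells and at 3.02, 2.75, 3.82 and 2.96 in Tom+/Pecam1- cells, against 7.77, 8.22, 6.21 and 7.77 in Tom-/Pecam1- cells. In muscle it stood at 2.78, 2.86 and 3.07 in Tom+ cells, against 3.63, 3.43 and 5.82 in Tom- cells. Repeat 3 was again the low array of the unmarked tumor cells, and muscle repeat 3 was the high array of the unmarked muscle cells. The differences were -4.36 in tumor and -1.39 in muscle. Retnlg and Stfa2l1 were under the 40th percentile on every array of all 3 marked populations, so these differences may be understated. Stefin A genes form a family of near-identical copies, and how far the Stfa2l1 probes read other copies is uncertain.

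The receptors that guide and sustain neutrophils had smaller gaps. Cxcr2 stood at 5.03, 4.61, 5.78 and 5.66 in tumor Tom+/Pecam1+ cells and at 4.94, 5.07, 5.35 and 5.47 in Tom+/Pecam1- cells, against 8.34, 8.62, 7.18 and 7.18 in Tom-/Pecam1- cells. In muscle Cxcr2 stood at 5.30, 5.29 and 5.43 in Tom+ cells, against 6.47, 6.23 and 6.04 in Tom- cells. Unmarked tumor cells of repeats 1 and 2 were higher than those of repeats 3 and 4. The marked cells lay in the opposite order, which the equal repeat means bring about, so it is no separate pattern. The difference was -2.62 in tumor (6.15-fold lower in marked cells) and -0.91 in muscle.

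Csf3r divided the repeats of the unmarked tumor cells in the same way. It stood at 4.96, 5.03, 5.61 and 5.88 in tumor Tom+/Pecam1+ cells and at 5.24, 5.17, 5.61 and 5.64 in Tom+/Pecam1- cells, against 8.18, 8.18, 7.16 and 6.85 in Tom-/Pecam1- cells. In muscle it stood at 4.47, 4.55 and 4.45 in Tom+ cells, against 5.13, 5.30 and 5.39 in Tom- cells. The differences were -2.18 in tumor and -0.78 in muscle, the smallest of the 8 genes in tumor.

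Il1b and Il1r2 encode the cytokine and its decoy receptor. Il1b stood at 4.75, 4.57, 4.50 and 6.14 in tumor Tom+/Pecam1+ cells and at 7.06, 7.16, 7.14 and 6.0 in Tom+/Pecam1- cells, against 10.51, 10.58, 10.67 and 10.17 in Tom-/Pecam1- cells. In muscle Il1b stood at 4.67, 4.52 and 4.94 in Tom+ cells, against 7.71, 6.30 and 7.53 in Tom- cells. In repeats 1 to 3 the Tom+/Pecam1- arrays lay well apart from both other tumor populations, between them. The differences were -3.64 in tumor (12.5-fold lower in marked cells) and -2.47 in muscle (5.55-fold lower).

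Il1r2, the decoy receptor, was high in a single population. It stood at 4.09, 4.07, 4.17 and 5.13 in tumor Tom+/Pecam1+ cells and at 4.03, 4.49, 4.65 and 4.69 in Tom+/Pecam1- cells, against 9.60, 9.16, 8.91 and 7.91 in Tom-/Pecam1- cells. In muscle Il1r2 stood at 3.83, 3.85 and 3.77 in Tom+ cells, against 4.73, 4.21 and 4.84 in Tom- cells. The unmarked muscle arrays did not overlap the marked ones of muscle. The difference was -4.43 in tumor (21.6-fold lower in marked cells) and -0.78 in muscle (1.71-fold lower). Il1r2 was under the 40th percentile on every array of tumor Tom+/Pecam1- and muscle Tom+ cells, so both folds may be understated.

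Within repeats, the tumor difference held its sign in all 8 genes in each of the 4 repeats. This follows from the lack of overlap between the arrays in the contrast that chose the genes, so it adds no evidence. The median over the 8 genes was -5.01, -4.31, -2.96 and -4.23 in repeats 1 to 4, against medians over all genes tested between 0.00 and 0.06. For S100a8 the difference was -6.65, -5.24, -5.35 and -6.20, and for Il1b it was -3.44, -3.42, -3.53 and -4.17. These 2 genes thus kept large gaps in every repeat, from -6.65 to -5.24 for S100a8 and from -4.17 to -3.42 for Il1b. Retnlg had -6.10, -6.64, -1.86 and -5.11, so repeat 3 stood apart. Csf3r had -2.93, -3.02, -1.55 and -1.21, and Cxcr2 -3.39, -3.54, -1.83 and -1.71, with repeats 1 and 2 on one side and repeats 3 and 4 on the other.

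**Figure D2:**
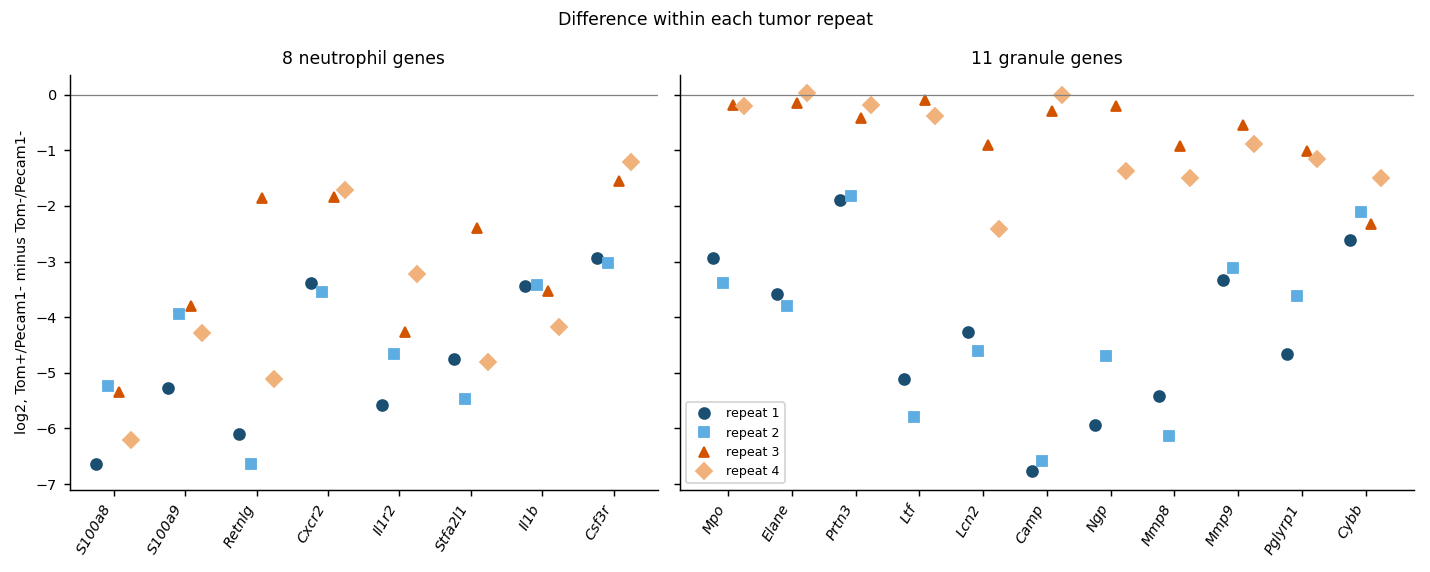
Difference between tumor Tom+/Pecam1- and Tom-/Pecam1- cells within each repeat (vertical axis, log2) for the 8 neutrophil genes (left) and 11 granule genes (right). Each point is 1 pair of arrays with the same repeat number. For Camp the difference is -6.76 and -6.58 in repeats 1 and 2 and lies near 0 in repeat 4, while that of S100a8 stays between -6.65 and -5.24.

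The granule genes, which neutrophils switch on while they mature in the bone marrow, parted from S100a8 and S100a9 in repeats 3 and 4. Their median difference, over 11 genes, was -4.27, -3.81, -0.41 and -0.89 in repeats 1 to 4. Camp, the antimicrobial peptide cathelicidin, had -6.76, -6.58, -0.29 and 0.00. Ltf, the iron-binding lactoferrin of specific granules, had -5.11, -5.79, -0.10 and -0.39. Elane, neutrophil elastase, had -3.58, -3.81, -0.15 and 0.02, and Mpo, the myeloperoxidase of azurophil granules, had -2.94, -3.38, -0.19 and -0.21. Camp, Ltf, Elane and Mpo were thus far lower in marked cells in repeats 1 and 2 and differed little in repeats 3 and 4. In repeats 3 and 4 Lcn2 had -0.91 and -2.42, Pglyrp1 -1.02 and -1.15, and Ngp -0.20 and -1.37. Mmp9 had -0.55 and -0.89 there, and Prtn3 -0.41 and -0.20. Mmp8, the neutrophil collagenase, kept a gap of -0.92 and -1.50 in repeats 3 and 4, against -5.42 and -6.13 in repeats 1 and 2. Cybb, the NADPH oxidase subunit that macrophages share, had -2.61, -2.10, -2.33 and -1.50. Repeats 1, 2 and 3 were all taken at day 48. Of other leukocyte lists, the macrophage markers had medians of -1.68, -0.85, -1.26 and -0.88, the mast cell markers -2.89, -3.50, -3.39 and -3.38, and the lymphocyte markers -3.13, -1.80, -1.34 and -0.08. The mast cell list thus kept its gap in all 4 repeats, and the part of these cell types in the neutrophil values was not tested.

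Other neutrophil genes were tested in the same fit. They were listed with earlier results of these data known, so their counts in every comparison are no independent support. The list held 40 genes outside the 8, of which 38 were on the array and 33 were bright enough to test. The dim ones were Ctsg, Olfm4, Ly6g, Ceacam10 and Padi4. Some tested genes were above the dim mark in Tom-/Pecam1- but not in Tom+/Pecam1- cells, so the filter favours a fall. One was Il1f9 (5.05 to 7.86 and 3.01 to 4.34). In tumor Tom+/Pecam1- against Tom-/Pecam1- cells, 30 of the 33 genes fell and 0 rose (median -2.08), against 12% of all genes that fell (limma, adjusted p under 0.05). Without tumor repeats 1 and 2, which leaves 2 arrays in each population, 14 fell and 0 rose, among 727 genes passing in either direction. Clec4e, the lectin receptor Mincle, stood at 4.34 ± 0.40 in Tom+/Pecam1- cells and 8.22 ± 0.73 in Tom-/Pecam1- cells (limma adjusted p = 8.44e-07). Its relative Clec4d fell by 3.23 (limma adjusted p = 9.62e-07). Acod1, the enzyme that makes itaconate in activated myeloid cells, fell by 3.03 (limma adjusted p = 3.59e-06), and Cybb fell by 2.14 (limma adjusted p = 8.03e-06). Pilra, Mrgpra2b and Cxcr1 did not pass.

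Ligands, receptors and regulators around the 8 genes also moved in tumor, mostly toward lower levels in Tom+/Pecam1- cells. Of 4 CXCR2 ligand genes tested, Cxcl2 (-1.55, limma adjusted p = 0.00143), Ppbp (-0.63) and Cxcl1 (-1.01) fell, and Mif did not pass. Cxcl2 and Cxcl1 are chemokines that draw neutrophils through Cxcr2. The call of Cxcl1 was lost without any single array of the 2 populations except Tom+/Pecam1- repeat 3, and that of Ppbp without repeat 1 or repeat 2 of either population. Of 15 interleukin-1 family and pathway genes 10 fell and 0 rose, among them Il18rap (-2.08), Casp1, the protease that matures interleukin-1β (-2.12), the inhibitor Irak3 (-1.14) and the cytokine Il1a (-2.21). Of 6 colony-stimulating factor genes 4 fell, among them the macrophage receptor Csf1r (-1.62). Of 10 myeloid transcription factor genes 7 fell, among them Spi1, which encodes PU.1 (-1.89), Cebpb (-0.70), Cebpa (-0.99) and Cebpe (-0.92). Without tumor repeats 1 and 2, 0 of the CXCR2 ligand genes, 4 of the interleukin-1 genes, 2 of the colony-stimulating factor genes and 1 of the transcription factor genes fell. The calls lost included Cxcl2, Cxcl1, Ppbp, Il1a, Csf2ra, Csf2rb, Cebpa, Cebpb and Cebpe (adjusted p = 0.0578 to 0.763). With the repeat number as a block, 2 ligand genes, 2 colony-stimulating factor genes and 3 transcription factor genes fell.

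Relatives of the 8 genes did not all move with them. Of 13 other S100 genes tested in this tumor comparison, S100b (1.47) and S100a16 (0.54) rose in Tom+/Pecam1- cells, S100a13 (-0.42) fell and 10 did not pass, a share of calls close to the 25.4% of all genes. S100b is a marker of glia that muscle and cartilage cells also make. Of the stefin family Stfa1 (-1.84) and Cstb (-0.37) fell. Retn, the resistin gene, fell by 0.53, and Retnla had a difference of 0.54 and did not pass. Of the receptor genes for S100a8 and S100a9, the scavenger receptor Cd36 (-1.18) and Emb (-0.74) fell and Tlr4, Ly96 and Ager did not pass. The call of Cstb was lost without any single array of the 2 populations except Tom-/Pecam1- repeat 2. The call of Retn was lost without Tom+/Pecam1- repeat 3 or 4 or Tom-/Pecam1- repeat 1 or 4, and that of S100a13 without Tom+/Pecam1- repeat 1 or 2 or Tom-/Pecam1- repeat 1 or 4. The calls of S100a16, S100a13, Stfa1, Cstb and Emb were lost without tumor repeats 1 and 2 (adjusted p = 0.116 to 0.370).

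Leukocyte markers of other types moved in the same direction in this comparison. Of 10 macrophage markers 9 fell, and their mean level per array was 7.657 to 8.094 in Tom+/Pecam1- cells, against 8.518 to 9.282 in Tom-/Pecam1- cells. Of the mast cell markers all 6 tested fell, and 7 of the 8 listed were under the 40th percentile on every Tom+/Pecam1- array. All 10 pan-leukocyte markers fell, as did 6 of 8 monocyte markers and 6 of 7 lymphocyte markers. Of 8 muscle markers 7 rose, with 8.884 to 9.317 in Tom+/Pecam1- cells, against 7.105 to 8.158 in Tom-/Pecam1- cells. Without tumor repeats 1 and 2, 1 macrophage marker, 6 mast cell, 6 pan-leukocyte, 3 monocyte and 0 lymphocyte markers fell and 1 muscle marker rose. With the repeat number as a block the count of lymphocyte markers was 1. No macrophage marker was under the 40th percentile on every Tom+/Pecam1- array. Of the neutrophil genes Retnlg, Il1r2 and Stfa2l1 were, and S100a8, S100a9, Cxcr2, Il1b and Csf3r were not. Probe sets differ in brightness, so this does not compare amounts of cells. Of 17 genes that tissue digestion can induce, Btg2 and Atf3 fell and the others did not pass, and 0 fell without tumor repeats 1 and 2. The call of Btg2 was lost without Tom-/Pecam1- repeat 1, and that of Atf3 without repeat 1, 2 or 3 of either population (adjusted p = 0.0509 to 0.0917).

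**Figure D3:**
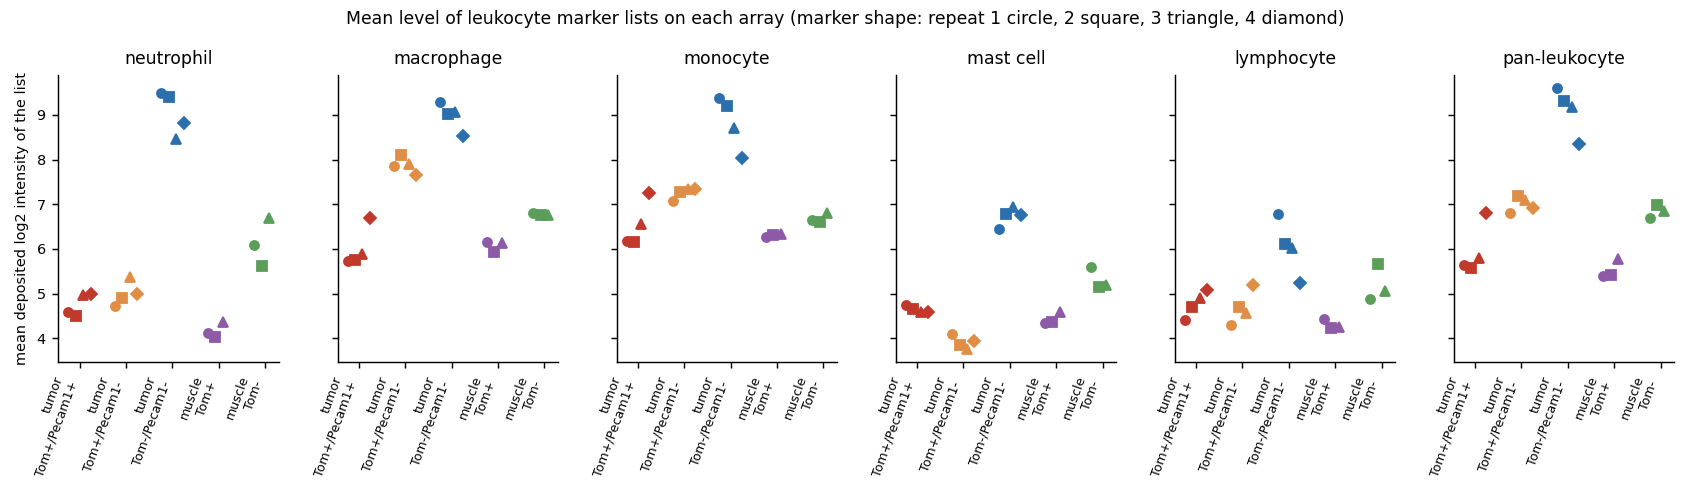
Mean deposited log2 intensity (vertical axis) of 6 lists of leukocyte markers on each of the 18 arrays, by sorted population (horizontal axis); marker shapes give the repeat. The neutrophil list, made of the 8 genes, lies between 8.451 and 9.487 in tumor Tom-/Pecam1- cells, against 4.722 to 5.38 in Tom+/Pecam1- cells. The macrophage list lies between 7.657 and 8.094 in Tom+/Pecam1- cells.

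In muscle, Tom+ cells were compared with Tom- cells. All 8 neutrophil genes were lower in Tom+ cells with no overlap of arrays, as were 25.2% of all genes, and the choice of the genes used this contrast too. The median difference was -1.79, and S100a8 came at place 41 from the lowest of 16011 genes. Within the numbered repeats S100a8 differed by -4.02, -3.99 and -4.47 and Stfa2l1 by -0.86, -0.57 and -2.75. The gap of S100a8 was thus alike in the 3 repeats and that of Stfa2l1 rested mostly on repeat 3. Of the 33 other neutrophil genes 2 rose and 5 fell, against 19.1% and 20.5% of all genes. The risers were Gda (1.51) and Mrgpra2b (0.63), and the fallers were Msrb1 (-1.15), G0s2 (-1.50), Clec4d (-1.36), Cybb (-1.07) and Pilra (-0.82). With the repeat number as a block 2 rose and 11 fell, against 17.9% and 20.4% of all genes. Without muscle repeats 1 and 2, which leaves 1 array in each muscle population with the spread taken from the tumor populations, 3 passed. Of 11 granule genes only Cybb fell without the block, and the other 10 did not pass, whereas 2 fell with the block. Camp, Ltf, Mmp8 and Ngp had mean centred levels of 3.35 to 4.46 in Tom+ cells. The dim mark in muscle was 4.47 to 4.54, so a difference there may be missed. Of 10 macrophage markers 5 fell, and 7 with the block. Of 10 pan-leukocyte markers 8 fell with or without the block. Without it they included Ptprc, which encodes CD45 (4.85 ± 0.65 in Tom+ cells and 8.04 ± 0.61 in Tom- cells).

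**Figure D4:**
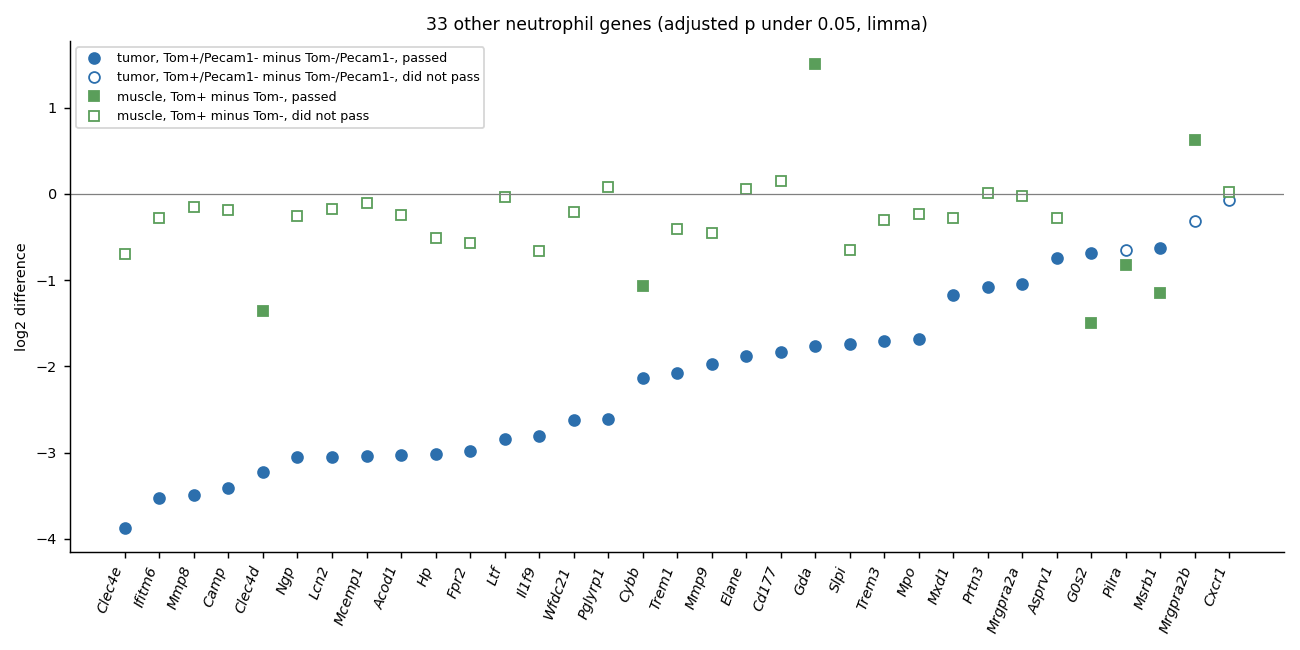
Difference between marked and unmarked cells (vertical axis, log2) for 33 other neutrophil genes (horizontal axis), in tumor (Tom+/Pecam1- minus Tom-/Pecam1-, circles) and in muscle (Tom+ minus Tom-, squares). Filled points passed an adjusted p of 0.05 (limma). In tumor 30 genes lie below 0 and passed, whereas in muscle most points lie near 0 and 7 passed. These calls are without the repeat number as a block, with which 13 passed in muscle and 14 in tumor.

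Within the marked tumor cells, Tom+/Pecam1+ cells were compared with Tom+/Pecam1- cells. This contrast did not choose the genes, although it shares the Tom+/Pecam1- arrays with the first comparison. Of the 8 genes only Il1b passed, in a comparison in which 44.6% of all genes passed and 23.6% fell. Il1b fell by 1.85 (SE 0.355, limma adjusted p = 0.00037), with 4.99 ± 0.77 in Tom+/Pecam1+ cells and 6.84 ± 0.56 in Tom+/Pecam1- cells. The difference within repeats was -2.32, -2.59, -2.64 and 0.13, so it was absent in repeat 4, taken at day 38, and the arrays of the populations overlapped. Without repeat 4 it was -2.51 (limma adjusted p = 1.04e-06), and without repeats 1 and 2 it was -1.25 and did not pass (limma adjusted p = 0.127). The other 7 genes differed by -0.43 (S100a9) to 0.20 (Retnlg), with limma adjusted p = 0.209 to 0.907. Retnlg and Stfa2l1 were under the dim mark on every array of both populations, so a difference there may be missed.

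Macrophage markers moved with Il1b here, as 9 of 10 fell in Tom+/Pecam1+ cells. Their mean level was 5.733 to 6.695 in Tom+/Pecam1+ cells and 7.657 to 8.094 in Tom+/Pecam1- cells, and the highest Tom+/Pecam1+ array was that of repeat 4, where Il1b was also highest. The part of macrophages in the Il1b difference was not tested. Of 33 other neutrophil genes 3 rose, namely Gda (3.23), Pglyrp1 (1.57) and Cxcr1 (0.30), where 21% of all genes rose, and 5 fell, namely Cybb (-2.20), Pilra (-1.68), G0s2 (-0.94), Clec4d (-1.14) and Msrb1 (-0.39). Cxcl2 fell by 1.55 (limma adjusted p = 0.000513). Of the receptor genes for S100a8 and S100a9, Cd36, which capillary endothelium also makes, rose by 3.98 and Emb fell by 3.86.

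Tumor Tom+/Pecam1+ cells were next compared with Tom+ cells of muscle, on centred arrays. This contrast shares the Tom+ muscle arrays with the muscle comparison. Of the 8 genes 1 passed, S100a8, which rose by 0.77 (SE 0.291, limma adjusted p = 0.0496), where 34.2% of all genes passed and 15.7% rose. Its centred level was 4.96 ± 0.14 in tumor Tom+/Pecam1+ cells (n = 4) and 4.18 ± 0.48 in muscle Tom+ cells (n = 3), and the arrays did not overlap, as 17.3% of all genes showed in this direction. The call stands at the threshold. It was lost without any single array of the tumor Tom+/Pecam1+ cells or without repeat 1 or repeat 2 of the muscle Tom+ cells (adjusted p = 0.0562 to 0.170). Without muscle repeats 1 and 2 the difference was 0.21 (adjusted p = 0.664), with the lone muscle array assumed to vary like the tumor populations. The Csf3r arrays did not overlap either (0.52), but it did not pass (limma adjusted p = 0.166). When tumor repeats 1 and 2 were left out, Csf3r passed (0.89, limma adjusted p = 0.00166) and S100a8 did not (0.66, limma adjusted p = 0.234). Because repeat means are equal, the lower Tom-/Pecam1- values of Csf3r in repeats 3 and 4 raise its marked tumor values there. This setting thus favours a rise of Csf3r. The other 6 genes differed by -0.43 (Cxcr2) to 0.45 (S100a9) and did not pass (limma adjusted p = 0.255 to 0.982). Of the 33 other neutrophil genes G0s2 (0.62) rose and Mrgpra2b (-1.35), Mrgpra2a (-0.83) and Msrb1 (-0.47) fell, where 18.5% of all genes fell. Without tumor repeats 1 and 2, 13 rose and 1 fell.

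The unmarked cells of the 2 tissues, tumor Tom-/Pecam1- and muscle Tom-, were also set side by side on centred arrays. All 8 genes were higher in the tumor cells, and in 7 of them the arrays did not overlap, as 23.9% of all genes showed in this direction. These 2 populations are the high sides of the contrasts that chose the genes, so no test is given. The median difference was 2.62. Il1r2 had the largest of the 8 differences, 3.97 or 15.7-fold, place 9 from the highest of 16011 genes, with 8.78 ± 0.71 in tumor and 4.82 ± 0.36 in muscle. S100a8 was 5.16-fold higher (10.71 ± 0.36 in tumor and 8.34 ± 0.75 in muscle), S100a9 4.43-fold, Il1b 7.82-fold, Retnlg 7.94-fold and Stfa2l1 7.28-fold. Csf3r was 3.95-fold and Cxcr2 2.37-fold higher. Retnlg overlapped through tumor repeat 3. The folds of the 8 genes thus ranged from 2.37 to 15.7.

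Of the 33 other neutrophil genes 27 rose in tumor Tom-/Pecam1- cells and 2, Mrgpra2b and Msrb1, fell, against 23.8% and 24.9% of all genes. Without muscle repeats 1 and 2, which leaves 1 Tom- array of muscle assumed to vary like the tumor populations, 10 passed. Clec4d rose by 3.48, Clec4e by 3.25, Cybb by 3.39 and the formyl peptide receptor Fpr2 by 3.02 (limma adjusted p = 2.52e-08 to 1.48e-05). All 11 granule genes rose (median 2.47), with a wide spread, as Camp stood at 7.36 ± 2.62 in tumor and 3.52 ± 0.44 in muscle. Of the interleukin-1 list 11 of 15 rose and 0 fell, among them Il1a (4.22), Nlrp3, the inflammasome sensor (3.17), Casp1 (2.59) and Il18 (2.15), with limma adjusted p = 7.4e-08 to 5.18e-06. Cxcl2 rose by 2.41 (limma adjusted p = 1.99e-05), and Cxcl1 differed by 0.34 and did not pass. All 10 pan-leukocyte markers, 9 of 10 macrophage markers and 7 of 8 monocyte markers rose too, and their part in the values of the 8 genes was not tested.

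The order of the 5 populations by centred mean was the same at the top for all 8 genes. Tumor Tom-/Pecam1- cells came first and muscle Tom- cells second. The genes were chosen as lower in marked than in unmarked cells of each tissue, so part of this order was set in advance. These 2 neighbours overlapped only for Retnlg, and 23.9% of all genes did not overlap in this direction. The 3 marked populations followed in an order that differed between genes. Their arrays mostly overlapped, so for S100a8, S100a9, Retnlg, Cxcr2, Il1r2 and Stfa2l1 neighbours among them did not differ beyond their spread. For Il1b, tumor Tom+/Pecam1- cells came next and lay clear of muscle Tom+ cells, and for Csf3r, tumor Tom+/Pecam1+ cells lay clear of muscle Tom+ cells. Muscle Tom- cells overlapped the population next below them for Retnlg, Il1r2, Il1b and Csf3r.

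Genes with a pattern like that of S100a8 were sought among the 16011 genes tested, as the root mean square difference over the 18 centred arrays after the mean of each gene was removed. S100a9 was nearest, at 0.643 log2 units, which the shared choice of the genes favours. The 8 nearest genes outside the list were the mast cell chymase Mcpt4 (0.941), the mast cell carboxypeptidase Cpa3 (0.991), Ifi205 (1.04), tenomodulin Tnmd of tendon (1.19), Chad (1.22), the interleukin-7 receptor Il7r (1.31), Clec4e (1.33) and Clec4d (1.35). Retnlg came at place 3 and Il1r2 at place 10, whereas Cxcr2 and Csf3r came at places 73 and 128. Mcpt4, Cpa3, Tnmd and Chad were thus nearer to S100a8 in this measure than Il1r2, Cxcr2 and Csf3r. The measure takes in the size of a change as well as its shape. Cxcr2 and Csf3r had smaller tumor differences (-2.62 and -2.18) than S100a8 (-5.86), and the part of size in the ranking was not tested. Against the mean pattern of the 8 genes, the nearest others were Il7r (0.431), Clec4e (0.461), Clec4d (0.588), Ifi209 (0.630), Slc7a11 (0.641), Ifitm6 (0.662), the activation marker Cd69 (0.677) and the leukocyte integrin subunit Itgb2 (0.678). All points come from the same 18 arrays and the same 5 populations.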

How the data were processed

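RNA of sorted cells was measured on 18 arrays. Per the submitters' processing notes, the authors deposited log2 intensities made with RMA and analysed with Partek; versions and step order are not given in the sources used here. The table held 41345 probe sets. Of these 23521 had 1 gene symbol, 1814 several and 16010 none in the platform's gene table, and only the first were used. For 1082 of 22180 genes the probe set with the highest mean was taken. Genes above the 40th percentile of the array on at least 3 arrays were tested (16011). No 2 arrays were identical (0 pairs).

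Limma 3.58.1 in R 4.3.3 was fitted with 1 mean per population over all 18 arrays (13 residual degrees of freedom), two-sided, with Benjamini-Hochberg adjustment over all genes tested and a threshold of 0.05, and was checked on simulated data. Tumor against muscle used arrays centred on their medians. The members, gene lists and comparisons were chosen with earlier results of these data known. Named genes are the 8 members, up to 4 genes per list with the smallest adjusted p and the 8 nearest in pattern; smaller sides of a count, and granule genes by repeat, were named after their values were seen. Same-numbered muscle arrays deviated together (r = 0.237 to 0.257, across genes; other pairs -0.163 to -0.0861), so the numbers pair them. In tumor the check is void because repeat means are equal (r = -0.705 to -0.211). Alternatives covered filter, normalization, centring, variance, block, threshold and left-out arrays. Figures used matplotlib 3.10.9.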

Additional observations from a re-analysis of the deposited data

Results flagged for a closer look

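In groups of 4 arrays, the highest or lowest value of each of the 8 genes in the 3 tumor populations was set against its neighbours by Dixon's criterion, 24 group tests in all, and 5 stood apart. Chance alone gives about 1 in 20 for a single test. These tests are not independent, because equal repeat means tie the 3 populations together. The share of all genes standing apart by this rule is not given, so the count of 5 is description only. Of these 5, 4 were in Tom+/Pecam1+ cells: repeat 4 for S100a9 (5.51, nearest other 6.15), for Il1r2 (5.13, nearest 4.17) and for Il1b (6.14, nearest 4.75), and repeat 3 for Retnlg (4.60, nearest 3.47). In Tom+/Pecam1- cells repeat 4 stood apart for Il1b (6.0, nearest 7.06). Repeat 4 was taken at day 38, and because repeat means are equal in the tumor table a high array in one population lowers the others of that repeat.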

How the results depend on the processing

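Counts are given for genes, other neutrophil genes and the 8 genes that passed. The alternative that left out tumor repeat 3, and the one that left out tumor repeats 1 and 2, were chosen after seeing the data, and the cause of the changes below was not tested beyond the fewer arrays or stricter thresholds that the settings themselves bring.

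For tumor Tom+/Pecam1+ against muscle Tom+ cells, the count of the 8 genes was 0 under the 60th percentile filter, the trended and robust variance, a 2-fold minimum, a threshold of 0.01, without tumor repeat 4, without tumor repeat 3 and without muscle repeats 1 and 2. The count was 2 with the replicate block and 3 on arrays not centred. Here the block joins tumor and muscle arrays of different mice by number alone, so its count carries no weight. Without tumor repeats 1 and 2, the count was 1, Csf3r in place of S100a8. In that setting the equal repeat means favour a rise of Csf3r and of other neutrophil genes such as Camp. Other neutrophil genes passing there numbered 2 under the 60th percentile filter, 7 not centred, 1 without muscle repeats 1 and 2, 2 at an adjusted p of 0.01, 1 at 2-fold and 14 without tumor repeats 1 and 2. Genes passing there numbered 8444 not centred (7642 higher and 802 lower, against 2513 and 2969), 2769 without muscle repeats 1 and 2, 3309 at an adjusted p of 0.01 and 737 at 2-fold. Not centred, the unmarked cells of tumor against muscle gave 7854 genes higher and 1554 lower, against 3805 and 3991, and without muscle repeats 1 and 2 they gave 10 other neutrophil genes.

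For tumor Tom+/Pecam1- against Tom-/Pecam1- cells, the replicate block gave 1830 genes and 14 other neutrophil genes, and leaving out tumor repeats 1 and 2 gave 727 and 14. An adjusted p of 0.01 gave 2440 genes. For muscle, other neutrophil genes numbered 13 with the replicate block, 11 in a fit of only the groups compared and 3 without muscle repeats 1 and 2, which gave 3629 genes from 1 array in each population, assumed to vary like the tumor arrays. For Tom+/Pecam1+ against Tom+/Pecam1- tumor cells, leaving out tumor repeats 1 and 2 gave 4698 genes and 0 of the 8 genes, and 2-fold gave 5 other neutrophil genes. At 2-fold 996, 2436, 2291 and 1873 genes passed in the tumor marked against unmarked, muscle, Pecam1 and unmarked tumor against muscle comparisons. Whether the tumor numbers pair samples could not be checked, because repeat means are equal there. The block kept the call of Il1b between the marked tumor cells.

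Leaving out single arrays gave 2871 to 3993, 5525 to 5913, 6394 to 6713, 4430 to 5150 and 6857 to 7562 genes in the 5 comparisons as reported in order. Other neutrophil genes then numbered 26 to 31, 5 to 8, 6 to 8, 2 to 3 and 26 to 29. The 8 genes gave 1 throughout between the marked tumor cells and 0 to 1 against muscle.

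Signs turned only for differences that had not passed. In the comparison with muscle Tom+ cells, Stfa2l1 turned to 0.11 with quantile normalization, 0.34 not centred, 0.017 with the replicate block or without tumor repeat 4, and 0.22 without tumor repeats 1 and 2 (-0.22 to 0.095 without single arrays). Il1b turned to 0.28 not centred, 0.092 without tumor repeat 3 and 0.25 without tumor repeats 1 and 2 (-0.45 to 0.092). Il1r2 turned to -0.057 with the replicate block or without tumor repeat 4 (-0.057 to 0.29), S100a9 to -0.0088 without muscle repeats 1 and 2 and Cxcr2 to 0.017 without tumor repeats 1 and 2. Between the marked tumor cells, without tumor repeat 3 Cxcr2 turned to -0.065 and Il1r2 to 0.024, and without tumor repeats 1 and 2 S100a8 turned to -0.078, Retnlg to -0.025 and Csf3r to 0.12. Without single arrays these ran from -0.11 to 0.28 (Cxcr2), -0.021 to 0.21 (S100a8), -0.094 to 0.57 (Retnlg), -0.22 to 0.092 (Csf3r) and -0.10 to 0.33 (Stfa2l1). In the first tumor comparison Mif turned to 0.10 without tumor repeat 4 (-0.063 to 0.062 without single arrays), and without tumor repeats 1 and 2 Slc4a1 turned to 0.017 and Ly96 to 0.092. Without centring, tumor levels against muscle shift as a whole, so directions there are relative to the array medians. Signal over background was not measured in the values used here, which limits statements on dim genes.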
